A study of Mus musculus with 20 samples.

Results

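Slc3a1, Inmt, Fmo2, Samd3, Mmp13 and Pim2 were the genes whose transcripts had the steepest time courses in the control line of a dopaminergic differentiation series, 3 with the steepest positive slopes (Slc3a1, Inmt and Fmo2) and 3 with the steepest negative ones (Samd3, Mmp13 and Pim2). They were picked by gene symbol for these slopes and are 6 of 13604 genes tested, out of 37557 shared by all tables. Mouse ESD3 (D3) embryonic stem cells of strain 129s2/SvPas, kept on mouse embryo fibroblast feeders, had been infected with a vector carrying an shRNA against luciferase (control) or against HPRT (HPRT knockdown), selected with puromycin per the study's methods, and taken through spherical neural masses toward dopaminergic neurons. Days are counted from the spherical neural mass stage, so day 0 is not the undifferentiated stem cell stage. Both lines were sampled daily from day 0 to day 4 and every other day from day 6 to day 14, with 1 library per line and day, so the 20 libraries hold 10 of each line and no replicate within a day. The knockdown hairpin was designed against the human gene, and RNAs of a time point were pooled. Every day of a line comes from that same line, so the p-values measure the spread between days and not between independent lines. The question asked here is whether the course of these 6 genes was also present in the HPRT knockdown libraries, which the choice did not use.

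The 6 genes have no common pathway. HPRT, the enzyme lowered in the knockdown line, recycles hypoxanthine and guanine into purine nucleotides. Slc3a1 encodes the heavy subunit of a cystine and basic amino acid transporter of kidney and gut, which works as a pair with the light subunit Slc7a9. Inmt methylates indole amines such as tryptamine with S-adenosylmethionine, and Fmo2 is a flavin-containing monooxygenase that oxidises nitrogen and sulphur in foreign compounds. Samd3 carries a sterile alpha motif, a module for contacts between proteins. Mmp13 is a collagenase that cuts fibrillar collagen in bone, cartilage and wounds, and Pim2 is a serine and threonine kinase that promotes survival and growth downstream of cytokine signalling.

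The label of the knockdown line was checked first with Hprt itself, which lay below the control on 10 of 10 days, by log2 ratios from -2.53 on day 0 to -5.00 on day 14; 5.24% of all genes tested were lower on 10 of 10 days. The mean log2 ratio of Hprt was -4.00 ± 0.888 (SD, n = 9 days, day 6 left out). Day 6 entered no test, since the study's pathway analysis did not include it, but its values are shown. The deposited values are log2 differences between the 2 libraries of a table, and normalized reads for 5 of the 6 genes were recovered from them (below: reads divided by a size factor per library, factors from 0.782 to 1.52; fractions arise because reads were counted in 49ths). Neighbouring days of both lines form loops of 4 tables; in 8 of the 9 loops between 90.9% and 92.4% of genes closed within 0.001 log2, and in the loop of days 3 and 4, which holds the control table of those days, 1.51% did.

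The values that chose the genes are given as a description. Over 9 days the control slopes were 0.751 ± 0.169 log2 per day for Slc3a1 (fitted slope ± SE, here and below), 0.689 ± 0.0766 for Inmt and 0.672 ± 0.0483 for Fmo2. The next in rank was Ccdc138, just outside the choice, with 0.593. On the other side the slopes were -0.373 ± 0.0889 for Samd3, -0.327 ± 0.103 for Mmp13 and -0.313 ± 0.0459 for Pim2. The next gene past the threshold for a control trend was Vrtn with -0.306. Neither 2310002L13Rik (-0.340, SE 0.195), between Samd3 and Mmp13, nor Serpinb2 (-0.311, SE 0.150), between Pim2 and Vrtn, passed that threshold, and both are named because their values were seen. For the background of the choice, 19.7% of all genes tested passed with a positive control slope and 23.9% with a negative one.

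Inmt and Fmo2 were the pair whose rise was also found in the HPRT knockdown line. Choosing the steepest control slopes favours lower slopes in the other line, and both genes had them. Their promoters are shown because these genes moved together; they come from RefSeq (GRCm38.p6, minus strand, 250 bases before to 50 after the transcription start), written 5′ to 3′, with capitals for TATAAA on either strand. Inmt lies at chr6:55174941-55175240 and the first of 2 listed Fmo2 starts at chr1:162898709-162899008.
Inmt: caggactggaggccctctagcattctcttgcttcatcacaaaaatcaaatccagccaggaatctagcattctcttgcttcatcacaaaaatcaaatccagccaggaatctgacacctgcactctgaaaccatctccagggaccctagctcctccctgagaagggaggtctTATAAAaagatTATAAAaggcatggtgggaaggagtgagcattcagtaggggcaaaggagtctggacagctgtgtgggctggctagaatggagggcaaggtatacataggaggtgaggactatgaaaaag
Fmo2: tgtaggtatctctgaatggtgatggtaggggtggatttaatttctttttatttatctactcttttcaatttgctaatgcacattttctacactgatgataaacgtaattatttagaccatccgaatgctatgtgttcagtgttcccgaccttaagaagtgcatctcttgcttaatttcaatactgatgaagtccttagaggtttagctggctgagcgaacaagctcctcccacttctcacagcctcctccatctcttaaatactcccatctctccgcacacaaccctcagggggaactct
The Inmt promoter holds TATAAA at 80 and at 69 bases before the start, as do 13.6% of the 32851 promoters in the table at least once on either strand. The Fmo2 window shown holds none of the 5 motifs searched on both strands in the 6 genes. These were the TATA box TATAAA, the GC box motif GGGCGG, the AP-1 motif TGANTCA, the STAT motif TTCNNNGAA and the octamer ATGCAAAT. The window of the other listed Fmo2 start, not shown, holds a STAT match (TTCTCTGAA), as do 8.3% of all promoters at least once. On the genome build of the reads (NCBIM37, mm9) the genes span chr6:55120620-55125037 and chr1:164804448-164828857, both on the minus strand and without an overlapping gene in the annotation.

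Inmt was nearly silent at the start of both lines. In the control, normalized reads from day 0 to day 4 were at most 0.887 (at the floor of the tables, 1 normalized count), 3.71, 1.26, at most 0.869 and 4.04, and from day 6 to day 14 they were 42.7, 118, 228, 259 and 420. In the HPRT knockdown they were at most 0.869, 3.10, 2.49, 3.92, 6.39, 18.7, 58.0, 29.9, 92.6 and 126 on the same days. The early values of both lines rest on 5 reads or fewer per library, and from day 6 the control was above the knockdown on every day. The mean of days 8 to 14 exceeded that of days 0 to 4 by 119-fold in the control and 22.9-fold in the knockdown, with days at the floor taken at their upper limit. In the knockdown line Inmt rose with a slope of 0.487 ± 0.0436 log2 per day (limma, adjusted p = 0.00215 over all genes; exact permutation of the 9 days, two-sided, p = 8.27e-05), which ranked 9 among 13604 slopes.

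Fmo2 followed a like course. Its control values were 1.07, 4.63, 5.02, 4.60, 2.02, 50.0, 47.0, 114, 127 and 607 normalized reads from day 0 to day 14, and the largest step in the control was the one from day 4 to day 6 (4.63 log2). The knockdown values were 2.37, 11.3, 7.48, 3.45, 12.8, 18.1, 51.5, 42.7, 140 and 111. Levels of both lines lay below 13 normalized reads through day 4 and above 18 from day 6 on, and the last control library held the highest value of all. In the knockdown Fmo2 rose by 0.382 ± 0.0518 log2 per day (limma, adjusted p = 0.00852; exact permutation p = 0.000601), rank 34. Without day 14 the knockdown slopes of Inmt and Fmo2 still passed, with adjusted p of 0.0193 and 0.0377 by limma.

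So 2 of the 3 genes with positive control slopes rose in the knockdown, where 7.56% of all genes tested rose. The knockdown slope was 70.6% of the control slope for Inmt and 56.9% for Fmo2. The Fmo2 share depends on the control table of days 3 and 4, whose loop failed to close for Fmo2 by 0.929 log2. Another route through the tables adds the same-day differences to the steps of the other line. By that route the Fmo2 slopes were 0.464 in the knockdown and 0.591 in the control, a smaller gap. For Inmt the gap was wider by that route. The slopes of the knockdown-over-control ratio were -0.223 ± 0.0698 and -0.208 ± 0.0699 log2 per day; they contain the control slopes that chose the genes, and no test of them is given. Averaged over the course, neither gene differed detectably between the lines: the mean log2 ratio was -0.399 ± 1.56 (SD, n = 9 days) for Inmt, lower on 5 of 9 days and at the floor in both lines on day 0 (between -0.720 and -0.083 with a day left out), and 0.188 ± 1.51 for Fmo2, higher on 6 of 9 days, with adjusted p of 0.497 and 0.746 by limma. Their same-day ratios changed sign within the course. Inmt stood at 2.17 on day 3 and at -2.92 on day 10, Fmo2 at 2.66 on day 4 and at -2.44 on day 14. The positive ratios rest on few reads, so the change of sign is uncertain. For Inmt on day 3, 3.41 knockdown reads stood against a control at the floor. For Fmo2 on day 4, 10 knockdown reads stood against 2 in the control.

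**Figure D1:**
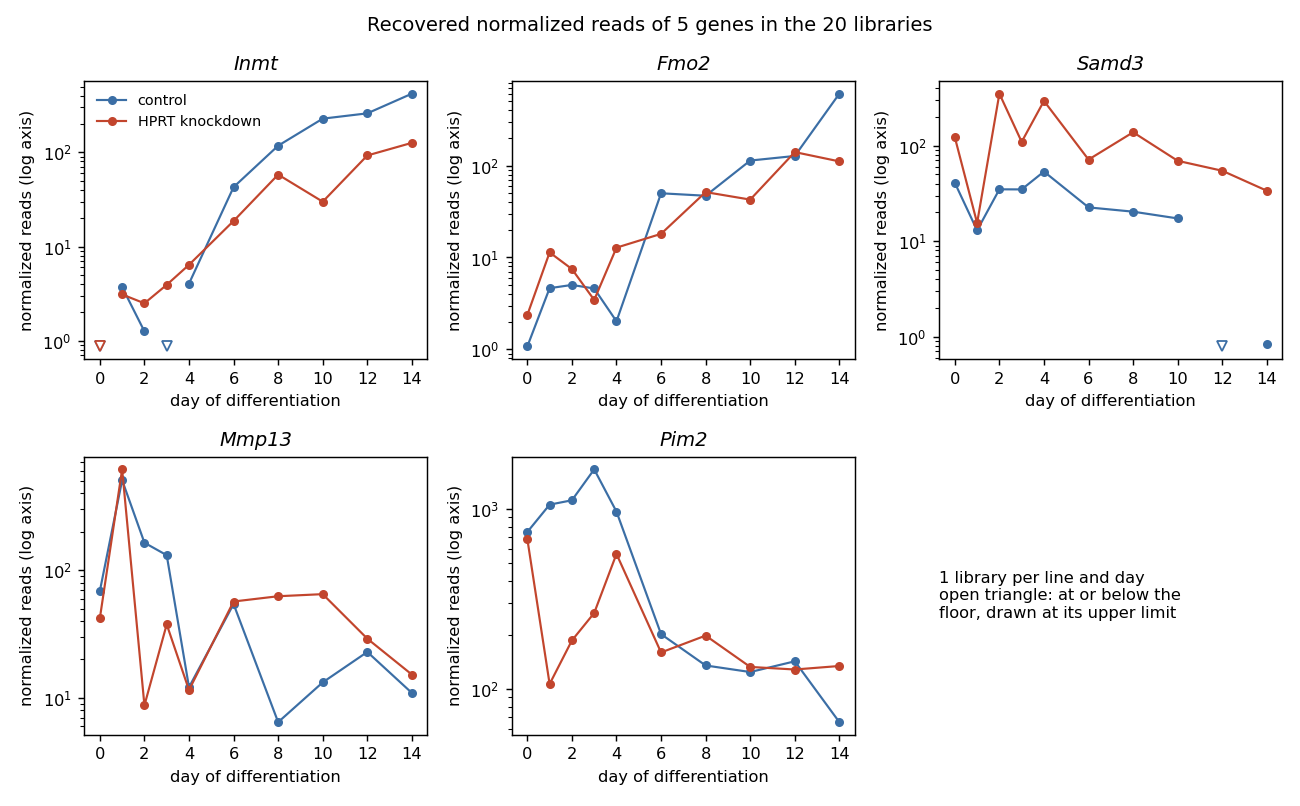
Normalized reads (log axis) of Inmt, Fmo2, Samd3, Mmp13 and Pim2 against day of differentiation, with control in blue and HPRT knockdown in red, 1 library per point; open triangles mark libraries at or below the floor, drawn at their upper limit (for Inmt on day 0 both lines share 1 symbol). Inmt and Fmo2 climb in both lines after day 4, Samd3 is higher in the knockdown on every day, Mmp13 peaks on day 1 in both lines, and the control of Pim2 drops from 969 to 202 between days 4 and 6.

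Inmt and Fmo2 were each other's nearest pattern among all genes tested, with a Pearson r of 0.959 over the 20 libraries (log2 values joined across tables; a description, since all points share libraries and a time course). After them, Inmt was most like Hoxb4 (0.936), a homeobox factor of posterior identity, and Fhl2 (0.921), a LIM domain protein. Fmo2 was most like Mvp (0.945), the major vault protein, and Slco2b1 (0.941), an organic anion transporter. Among lists written with general knowledge of the families, 9 of 15 small-molecule methyltransferases and relatives of Inmt passed the filter on level; 0 rose and 1 fell in the knockdown line (7.56% and 5.49% of all genes), and in the mean ratio 3 were higher and 2 lower in the knockdown (26.2% and 26.3% of all genes), counts near those shares. As3mt, which methylates arsenic, had a mean ratio of -1.02 (limma, adjusted p = 0.00133), and Ahcy, which hydrolyses the S-adenosylhomocysteine left by methyl transfer, -0.952 (adjusted p = 0.0035). Of the other Fmo genes, 2 of 6 passed the filter and 0 of them had a knockdown trend. Fmo5 had a mean ratio of 1.03 (limma, adjusted p = 0.000169) and exceeded the control on 9 of 9 tested days; its difference from Fmo2 was not tested.

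Slc3a1, the top of the control ranking, differed in kind from the other rising genes. Its control course consists of 2 steps, a difference of 6.51 log2 from day 0 to day 1 and of 5.96 from day 3 to day 4, while the other 7 steps lay between -0.38 and 0.64. From day 4 to day 14 the control slope was 0.094 log2 per day, and the knockdown slope over the same days was 0.045. Tables of different pairs placed the same libraries differently. In the table of days 2 and 3, control day 3 lay 0.21 below control day 2, whereas the day 3 table of both lines put the knockdown 6.82 above that same control library. Likewise the knockdown library of day 0 was 7.14 above the control in the same-day table but 6.23 below the knockdown of day 1 in the table of days 0 and 1, although control and knockdown of day 1 differed by only 0.92. The loops of 4 tables therefore failed to close for Slc3a1 by -5.88 between days 0 and 1 and by 5.95 between days 2 and 3, against residuals from -0.17 to 0.03 elsewhere. No set of read numbers that met these tables was found, so no level is given for Slc3a1.

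In the knockdown line the only large difference of Slc3a1 was the one from day 0 to day 1; the other 8 steps lay between -0.43 and 0.68. The knockdown slope was 0.174 ± 0.117 log2 per day and did not pass (limma, adjusted p = 0.33; exact permutation p = 0.205). Without day 0 it was 0.005, and by the other route through the tables, over the same-day differences and the control steps, it was 0.421 (adjusted p = 0.0543). Its mean ratio of 1.81 ± 2.95 (SD, n = 9 days) rests on days 0 and 3; the other 7 tested days lay between -0.32 and 0.92, and limma gave an adjusted p of 0.11. An exact two-sided sign-flip test of the mean over the 9 days, of which 8 were above 0, gave p = 0.0195, not adjusted over genes.

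Slc3a1 (chr17:85427687-85463583, plus strand, NCBIM37) overlaps the 3′ end of Prepl, a serine hydrolase gene on the opposite strand (chr17:85462817-85489607), over 767 bases. Of the 2307 exonic bases of Slc3a1, 608 are also exonic in Prepl. The library kit does not mark strand, so reads from the shared bases cannot be told apart. Prepl had no large difference in any table (from -0.55 to 0.75 over 28 tables) and its loops closed within 0.0255. Across the 23 tables in which Slc3a1 differed by less than 5 log2, its differences and those of Prepl had a Pearson r of 0.847, a description over tables that share libraries. In the other 5 tables Slc3a1 differed by 5.96 to 7.14. What share of the Slc3a1 values comes from Prepl was not tested.

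**Figure D2:**
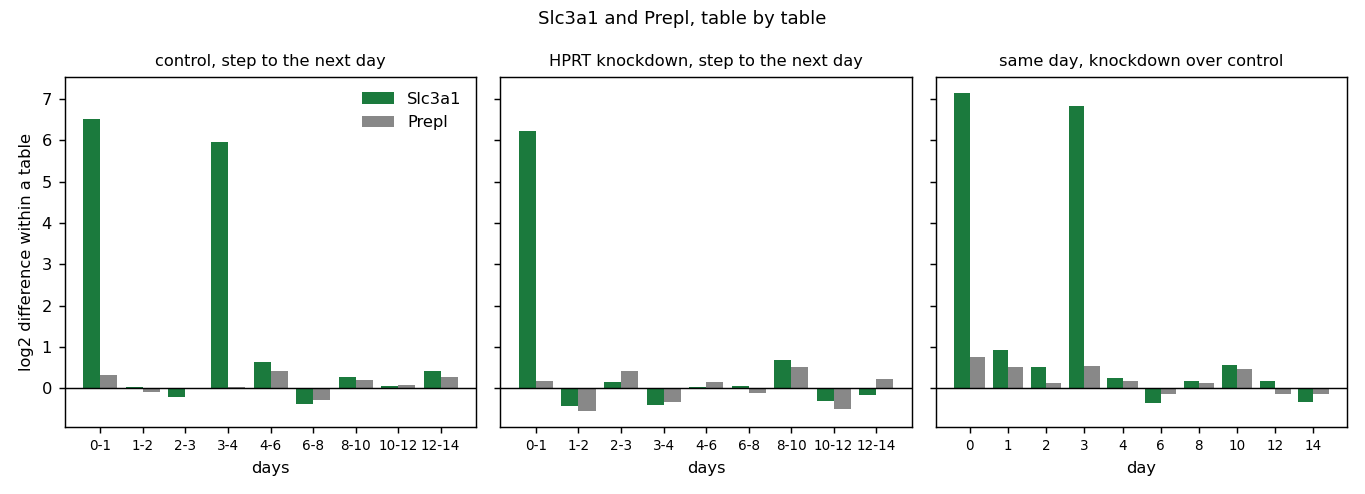
Log2 difference within each deposited table for Slc3a1 (green) and Prepl (grey): steps of the control line (left), steps of the HPRT knockdown line (middle) and same-day differences of knockdown over control (right), 1 bar per table. Slc3a1 reaches 6.51 and 5.96 in the control, 6.23 in the knockdown and 7.14 and 6.82 in the same-day tables, and stays between -0.43 and 0.92 in all others, where its bars mostly share the sign of those of Prepl.

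Slc7a9, the light subunit that Slc3a1 needs, did not pass the filter on level. Of the 10 heavy and light subunits of amino acid transporters listed, 7 passed. In the knockdown line 1 rose and 1 fell (7.56% and 5.49% of all genes). Slc7a8 rose (0.143 log2 per day, limma adjusted p = 0.0119, and 0.0762 without day 14). Slc7a11, the cystine and glutamate exchanger, fell (-0.247, limma adjusted p = 0.0131). In the mean ratio 1 was higher and 2 were lower in the knockdown (26.2% and 26.3% of all genes). Slc7a8 was the higher one (1.15, limma adjusted p = 0.0146), and Slc7a7 was among the lower (-2.13, adjusted p = 0.00105). The nearest patterns to Slc3a1 over the 20 libraries were those of Agxt2l2 (r = 0.901), Usp13 (0.887) and Fbrsl1 (0.880). For Slc3a1 these joined values contain the differences of tables whose loops failed to close. The likeness therefore cannot be read as a shared expression course.

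Samd3 was the only one of the 6 genes whose mean ratio between the lines passed the test, and it was above the control in every library pair. Control values were 40.8, 13.0, 34.9, 34.8 and 53.5 normalized reads from day 0 to day 4, then 22.6, 20.4, 17.3, at most 0.790 and 0.840 from day 6 to day 14. Knockdown values were 122, 15.5, 350, 110, 294, 71.4, 138, 69.3, 54.6 and 33.7 on the same days. Both lines had a dip on day 1, where they nearly met. The control course was not gradual: through day 10 all its values lay between 13.0 and 53.5, and the last pair of libraries held at most 1.07 reads and 1 read.

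The mean log2 ratio of Samd3, knockdown over control, was 2.78 ± 1.77 (SD, n = 9 days), higher on 9 of 9 tested days and on day 6 (limma, adjusted p = 0.00188; exact sign-flip p = 0.00391, the smallest these 9 days allow). Knockdown libraries were higher on 10 of 10 days for 6.49% of all genes tested, and 26.2% passed limma with a higher mean and 26.3% with a lower one; 1 of the 6 members passed. The same control libraries that chose the gene enter this mean. Ratios ran from 0.23 on day 1 to 5.85 on day 12. On day 12 the knockdown held 45 reads against a control at the floor. That makes it at least 24.6-fold higher when the control is set at 3 reads, with counting error of the 45 left out. On day 14 31 reads stood against 1, a 40.1-fold ratio. Its exact 95% interval, from 6.69 to 1635, covers counting error only. The choice by control slope favours low control values on these last days, so both folds are a description. With the lines compared without pairing by day (no replicate block), Samd3 still passed with adjusted p = 0.0168.

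The slope of Samd3 in the knockdown line was -0.089 ± 0.0900 log2 per day and did not pass (limma, adjusted p = 0.521; exact permutation p = 0.403). Without day 1 it was -0.180 (adjusted p = 0.0526). With the days from 4 to 14 alone, a choice made after seeing the data, the slope was -0.319 and passed (adjusted p = 0.0366), where knockdown values went from 294 to 33.7. Nearest to Samd3 over the 20 libraries were Zfp687 (r = 0.908), T (0.884), the brachyury factor of early mesoderm, and Fezf1 (0.846), a forebrain zinc finger factor. The mean ratios of Zfp687, T and Fezf1 were 0.302, 3.48 and 1.60 (limma, adjusted p = 0.00591, 7.26e-05 and 0.000962). Likeness over the 20 libraries takes in differences between the lines, so these ratios are not separate from it. Of the other genes named for a SAM domain, 9 of 13 passed the filter; 1 rose in the knockdown line (7.56% of all genes), and 4 were higher and 2 lower in the mean ratio (26.2% and 26.3% of all genes). Samd9l (0.777, adjusted p = 0.0105) and Samd8 (0.713, adjusted p = 6.45e-05) were higher, and Samd10 (-0.645, adjusted p = 0.0115) was lower.  The gene lies at chr10:25949513-25991978 (NCBIM37, plus strand), and its promoter window matched none of the 5 motifs.

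**Figure D3:**
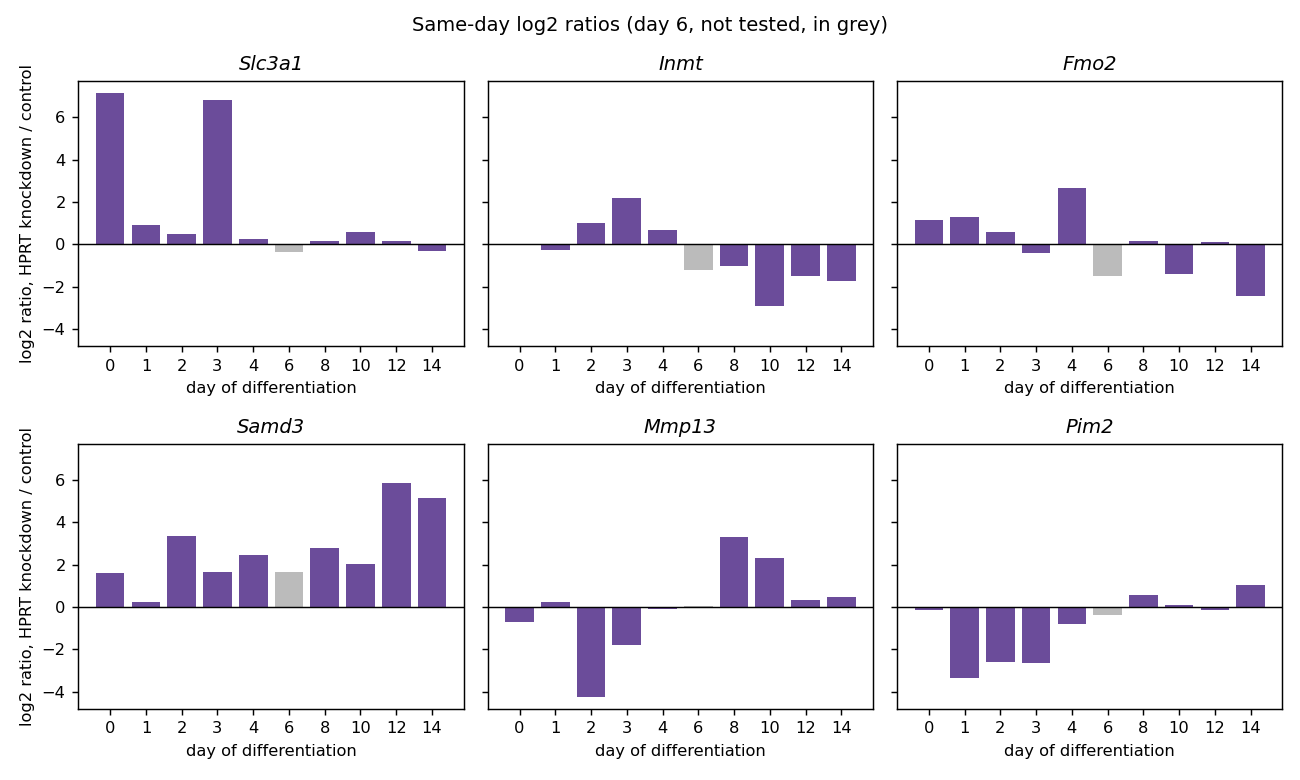
Same-day log2 ratio of HPRT knockdown over control against day, 1 bar per day, for each of the 6 genes on a shared axis; day 6 is grey. Samd3 is above 0 on every day, from 0.23 to 5.85; Slc3a1 stands out on days 0 and 3 only; the lowest values of Pim2 and Mmp13 lie on days 1 and 2 and their highest on days 14 and 8, while Inmt is highest on day 3 and lowest on day 10.

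Mmp13 and Pim2 had ratios of both signs within the course, whereas those of Samd3 were all positive. Their promoters are shown for the motifs they hold (RefSeq, GRCm38.p6, plus strand, same window as above; Mmp13 at chr9:7272264-7272563 and Pim2 at chrX:7878056-7878355), with every match in capitals.
Mmp13: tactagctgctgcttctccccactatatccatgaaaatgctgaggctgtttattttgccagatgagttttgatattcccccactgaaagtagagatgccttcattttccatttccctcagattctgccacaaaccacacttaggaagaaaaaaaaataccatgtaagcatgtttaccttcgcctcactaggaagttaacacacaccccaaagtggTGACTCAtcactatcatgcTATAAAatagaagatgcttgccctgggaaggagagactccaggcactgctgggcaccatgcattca
Pim2: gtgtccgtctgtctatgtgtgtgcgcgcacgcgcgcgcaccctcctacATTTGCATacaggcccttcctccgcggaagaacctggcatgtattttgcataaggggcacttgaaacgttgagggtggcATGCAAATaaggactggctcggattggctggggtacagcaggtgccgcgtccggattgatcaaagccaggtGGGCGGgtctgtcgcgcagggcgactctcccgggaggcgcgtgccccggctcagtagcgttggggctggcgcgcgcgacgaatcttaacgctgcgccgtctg
The Mmp13 window holds an AP-1 match 35 bases and TATAAA 16 bases before the listed start; 7.81% of all promoters hold an AP-1 match. The Pim2 window is rich in CpG, with 31 of them against a median of 7 over all promoters, and holds a GC box (35.7% of all promoters) and the octamer once on each strand, 202 and 123 bases before the start (1.74% of all promoters hold it at least once). The octamer was added after the sequence was seen. In mm9 the genes span chr9:7272514-7283333 and chrX:7455388-7460558.

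Mmp13 peaked on day 1 in both lines, with 509 normalized reads in the control and 618 in the knockdown. The control stood at 68.8 on day 0, at 164, 131 and 12.1 on days 2 to 4, and at 54.4, 6.45, 13.2, 22.9 and 10.9 from day 6 on. The knockdown values of the same days were 42.0, 8.73, 37.6, 11.5, 56.9, 62.6, 65.0, 29.1 and 15.2. The knockdown step from day 1 to day 2 was -6.16 log2, and its ratio to the control was -4.23 on day 2 and 3.30 and 2.30 on days 8 and 10. The knockdown slope was -0.086 ± 0.117 log2 per day (limma, adjusted p = 0.639), and it turned to 0.026 without day 1. The control slope of Mmp13 also rests on the first days: from day 4 to day 14 it was 0.055. The mean ratio was -0.013 ± 2.19 (SD, n = 9 days), higher on 5 of 9 days (adjusted p = 0.989).

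Pim2 had its highest control levels on days 0 to 4. In the control it stood at 746, 1059, 1120, 1663 and 969 normalized reads on days 0 to 4, then at 202 on day 6 and at 135, 124, 143 and 65.5 on days 8 to 14. In the knockdown it was 682 on day 0, 107 on day 1, 186, 265 and 564 on days 2 to 4, 160 on day 6 and 198, 133, 128 and 134 on days 8 to 14. The lines began alike (ratio -0.12), parted on days 1 to 3 with ratios of -3.33, -2.58 and -2.65, and from day 6 on stayed within 1.04 of each other. The knockdown slope was -0.101 ± 0.0540 log2 per day (limma, adjusted p = 0.223; exact permutation p = 0.14), and the mean ratio was -0.878 ± 1.58 (SD, n = 9 days), with 6 of 9 days below 0 (limma, adjusted p = 0.143). For both genes the days 0 to 4 exceeded the days 8 to 14 in mean level more in the control (13.2-fold for Mmp13 and 9.5-fold for Pim2) than in the knockdown (3.34-fold and 2.43-fold), values that contain the control course used for the choice.

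Of the 3 genes with negative control slopes, 0 fell in the knockdown line by limma, where 5.49% of all genes tested fell; 0 of them had an unadjusted p under 0.05, and the exact permutation p ranged from 0.14 to 0.565. Pim2 came closer without day 1 (-0.147, adjusted p = 0.0542) and with days 4 to 14 alone (-0.217, adjusted p = 0.0606), and Samd3 passed with days 4 to 14 alone. Their knockdown slopes were 23.8%, 26.2% and 32.4% of the control slopes for Samd3, Mmp13 and Pim2. The choice of the steepest control slopes favours such low shares. The ratio slopes were 0.266 ± 0.0742, 0.224 ± 0.121 and 0.220 ± 0.0724 log2 per day, positive in each and given with no test.

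**Figure D4:**
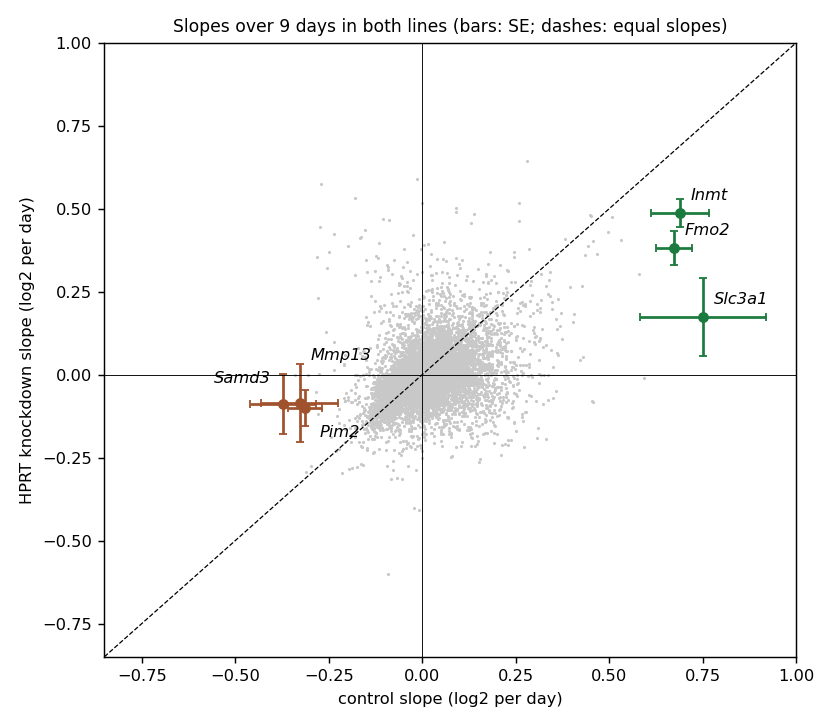
Slope over 9 days in the HPRT knockdown line against the slope in the control line, both in log2 per day, for all 13604 genes tested (grey) and the 6 members with SE bars (green for positive and brown for negative control slopes); the dashed line marks equal slopes. All 6 lie between the horizontal axis and the dashed line, a position that the choice by control slope favours. Inmt and Fmo2 stand at 0.487 and 0.382 in the knockdown and the negative 3 between -0.101 and -0.086.

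Among the relatives of Mmp13, 17 of 26 metalloproteinases and their inhibitors passed the filter; 1 rose in the knockdown line (7.56% of all genes), and in the mean ratio 7 were higher and 2 lower (26.2% and 26.3% of all genes), with a median of 0.249 against 0.006 over all genes. The inhibitors Timp4 (2.13, limma adjusted p = 4.33e-05) and Timp3 (1.28, adjusted p = 0.000176) were higher, and Mmp25, a membrane-bound metalloproteinase, was lower (-1.56, adjusted p = 0.0168), a call lost with day 6 kept (-1.25, adjusted p = 0.0581). Mmp13 was most like Spp1 (r = 0.853), osteopontin, then Nqo1 (0.765) and Sema7a (0.751). Among the 15 Pim kinases, upstream signalling genes and substrates, all passed the filter; 6 rose and 0 fell in the knockdown line (7.56% and 5.49% of all genes), and 6 were higher and 1 lower in the mean ratio (26.2% and 26.3% of all genes). Pim3 rose in the knockdown (0.205 log2 per day, limma adjusted p = 0.00986, and 0.0539 without day 14); the difference from the slope of Pim2 was not tested. Myc (1.04, adjusted p = 0.0253) and Stat3 (0.981, adjusted p = 1.3e-05), a factor activated by LIF, had higher means, though that of Myc did not pass without day 3, 8, 10, 12 or 14 (adjusted p up to 0.0581), and Eif4ebp1, a repressor of cap-dependent translation, a lower one (-0.915, adjusted p = 4.47e-05). Pim2 was most like Plcxd1 (r = 0.936), Epha1 (0.898) and Dnmt3b (0.879), the de novo DNA methyltransferase of early embryonic cells. The mean ratios of these 3 were -0.414, -0.554 and -1.81 (limma, adjusted p = 0.338, 0.22 and 0.0232).

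Markers of the cells in the cultures moved as well. All 12 pluripotency markers listed, among them Pou5f1 and Nanog, were lower in the knockdown in the mean ratio, with a median of -2.71, and 0 of 12 passed for a trend in either line. In the control the medians of the slopes were 0.026 for them, 0.094 for 8 neuronal markers (5 rising; 5 were lower in the knockdown in the mean ratio, with a median of -1.46) and 0.157 for 11 fibroblast and meningeal markers (5 rising, 0 falling). Of 8 oligodendrocyte markers, 4 rose in the knockdown and 3 were higher in its mean; of 8 astrocyte markers 7 were higher and 1 lower. In the control 0 of the 8 oligodendrocyte markers rose and 2 fell. Of the fibroblast and meningeal markers, 2 were higher and 3 lower in the mean ratio. Of 8 dopaminergic neuron markers, 2 rose in the control, and 3 were higher and 0 lower in the mean ratio (median 0.288). Of 7 extraembryonic endoderm markers, 4 rose in the control (median slope 0.107), and 0 were higher and 1 lower in the mean ratio. Among 6 endothelial markers 2 rose in the control, and among 4 choroid plexus markers 2 rose and 1 fell. Over all genes 19.7% rose and 23.9% fell in the control. In the knockdown 7.56% of all genes rose and 5.49% fell, and 26.2% were higher and 26.3% lower in the mean. Of the 8 lymphocyte markers 0 passed the filter, and of the 8 bone and cartilage markers 3 did (not Sp7, Ibsp or Bglap), all of them higher in the knockdown. Their part in the courses of the 6 genes was not tested, and in these bulk libraries fewer cells of a type and less RNA per cell cannot be told apart.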

How the data were processed

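The authors sequenced TruSeq libraries on an Illumina HiSeq. Per their methods and processing notes, the authors aligned reads to mm9 with ELAND in CASAVA 1.8.2, counted them per gene and normalized with DESeq. The authors deposited 28 tables with log2 values of 2 libraries each, centred on the mean of the pair: 9 of consecutive days per line and 10 of the same day. Values at or below 1 normalized count had been set to a log2 of 0, which understates differences of low genes. The sequencing lane of each library is not given in the sources used here. Read totals were not used here.

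Steps of a line were added up to a time course, and same-day ratios were taken within their table. Tables were normalized separately. Genes whose typical log2 count, read from the rounding step of the single-precision values, reached 4 were kept (13604); all 6 members passed, and 0 reached 8. Slopes on day (9 days) and mean ratios were fitted with limma 3.58.1 (R 4.3.3) with Benjamini-Hochberg adjustment over these genes at 0.05; for the 6 members no test of control or ratio slopes is given, since the control slopes chose them. Reads were recovered as multiples of a 49th of a read that met the tables (smallest such numbers; tolerance 0.02 of a 49th plus rounding); they met 26 of 27 tables within 0.001 log2 for Inmt and Fmo2 and 27 of 27 for Samd3, Mmp13 and Pim2 (for Samd3, 14 of 17 judged steps matched), and the control table of days 3 and 4 was not used for them. For Samd3, control day 14 was set to 1 read and control day 12 to the floor, from the tables that hold these libraries. The match with those tables is therefore not a separate check. The slope fit and the recovery of reads were tested on simulated data. Simulated reads were mostly far above the early reads of Inmt and Fmo2 and the last control reads of Samd3, so that range was hardly covered. Low reads carry counting error, and with no replicate within a day no other error can be given.

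Libraries were paired by day, as both lines were collected on the same days. Deviations of the paired libraries from their line means correlated across genes with r from 0.130 to 0.413 on 8 of 9 days and -0.033 on day 0. These deviations still hold any time course that both lines share, so the correlations cannot show a shared collection effect. Named genes were the 6 members, the next genes in rank, the 3 most like each member, and up to 3 list genes with the largest values past the threshold. The members and lists were chosen with earlier results of these data known. One gene that this rule would name is not reported here.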

Additional observations from a re-analysis of the deposited data

How the results depend on the processing

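Over all alternatives tried for the knockdown slope and the mean ratio of the 6 genes, 177 of 186 values kept their direction and their side of the threshold. In this count the unadjusted exact p-values were held against the same 0.05. The knockdown fit without day 0 entered it again as days 1 to 14 alone. Keeping day 6, which is the mean of the tested days, left every slope as it was. None of the 6 genes has a typical log2 count of 8, so that stricter filter gave no value for them. Over all genes, the 1776 knockdown trends became 126 with the slope on log2(day + 1) and 1102 with days 4 to 14 alone. They became between 169 and 2961 when a day was left out (169 without day 14, 463 without day 12, 724 without day 2, 848 without day 10 and 2961 without day 0). The fit with days 1 to 14 alone is the same as the one without day 0. The 5933 control trends became 3930 with the slope on log2(day + 1). The cause was not tested. With days 4 to 14 alone, chosen after seeing the data, the knockdown slope of Inmt was 0.402 (adjusted p = 0.0544), that of Fmo2 0.326 (0.0477), that of Pim2 -0.217 (0.0606), that of Samd3 -0.319 (adjusted p = 0.0366) and that of Mmp13 0.032, and the control slope of Mmp13 was 0.055. Leaving out a day at a time gave knockdown slopes of -0.143 to 0.026 for Mmp13, and mean ratios of -0.426 to 0.514 for Mmp13, -0.121 to 0.517 for Fmo2 and -0.720 to -0.083 for Inmt, all without passing. The mean ratio of Slc3a1 (1.807) had an exact sign-flip p of 0.0195, not adjusted over genes, and did not pass by limma (adjusted p = 0.11). It rests on days 0 and 3, whose loops with days 1 and 2 failed to close. By the other route through the tables, the control slope of Slc3a1 was 0.504 and its knockdown slope 0.421 (adjusted p = 0.0543). For Fmo2 that route gave 0.591 in the control and 0.464 in the knockdown. Of the other named genes, 253 of 265 values kept direction and call. With the slope on log2(day + 1) the knockdown trends of Slc7a8 (adjusted p = 0.0894) and Pim3 (0.0639) did not pass, and with days 4 to 14 alone those of Slc7a8 (0.0758) and Slc7a11 (0.246) did not.

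Without the replicate block, that is without pairing the lines by day, 5699 genes passed in the mean ratio against 7141 with it, and Samd3 kept its call (adjusted p = 0.0168); no call of the 6 genes changed. Low read numbers, at most 5 for Inmt and 11 for Fmo2 through day 4, limit any ratio of those days, and the median log2 levels of both lay below the 4 that their rounding steps gave.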
